A study of Mus musculus with 12 samples.

Results

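The liver builds phosphatidylcholine and phosphatidylethanolamine, the main phospholipids of its membranes and of the lipoproteins it secretes, and 10 genes of their synthesis were followed here in livers overexpressing ChREBP. ChREBP, encoded by Mlxipl, is a transcription factor that responds to glucose. The genes were Chka, Chkb, Etnk1, Etnk2, Pcyt1a, Pcyt2, Chpt1, Cept1, Pemt and Lpcat3. They were chosen by their place in the pathway, with earlier results of these data known. A gene was represented by the array row that carries its symbol and no other. Each of 8 members, of 19938 genes measured, had exactly 1 such row. The row of Chkb also carries the symbol of an overlapping readthrough transcript, and Etnk2 is not listed in the annotation used, so neither was analysed here.

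The 12 samples were whole livers of fed male C57BL/6J mice, 6 given an adenovirus for ChREBP and 6 given an adenovirus for GFP, a control protein. Per the labels the mice were aged 8 weeks, the virus went in through the tail vein, and livers were taken 3 weeks later. That age may be the one at injection. Both groups therefore carried a virus, and the mice kept their own Mlxipl gene. The labels name the 6 samples of a group as biological replicates, and each was read on 1 array. Which species and isoform of ChREBP the virus encoded is not given in the sources used here. Scan dates were not among the data, and a batch of arrays could therefore not be examined. Values are on the log2 scale of RMA, which normalizes arrays to each other, so a difference of 1 is a doubling. They compare a gene between arrays but not one gene with another.

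Phosphatidylcholine is made from choline in a sequence of reactions. Choline kinase adds a phosphate, a cytidylyl transferase activates the product as CDP-choline, and a phosphotransferase joins it to diacylglycerol. Ethanolamine goes through a parallel branch to phosphatidylethanolamine. In hepatocytes a further route methylates phosphatidylethanolamine to phosphatidylcholine with Pemt, which uses S-adenosylmethionine. Lpcat3 then sets which fatty acid the phospholipid carries, by adding polyunsaturated chains to lysophospholipids.

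The 250 bases before the transcription start were read from RefSeq on GRCm38.p6 for 9 of the 10 members, with no window listed for Pcyt2. The windows of Lpcat3 and Chpt1, the members that rose, and one of those of Pemt, which had the smallest adjusted p among those that fell, show how unlike the members are in base composition. They run 5′ to 3′ toward the start site, and capitals mark a GC box (GGGCGG) or a CCAAT box (CCAAT) on either strand. No base was shared by a match to each of these motifs. Lpcat3 lies at chr6:124662854-124663103 on the plus strand, Chpt1 at chr10:88503971-88504220 on the minus strand and Pemt at chr11:60040189-60040438 on the minus strand.
Lpcat3: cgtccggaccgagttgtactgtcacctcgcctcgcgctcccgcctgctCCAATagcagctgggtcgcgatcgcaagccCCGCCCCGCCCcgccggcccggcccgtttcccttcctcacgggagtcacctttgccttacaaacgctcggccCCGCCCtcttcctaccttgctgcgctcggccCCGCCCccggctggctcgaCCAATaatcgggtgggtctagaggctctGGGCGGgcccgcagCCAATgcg
Chpt1: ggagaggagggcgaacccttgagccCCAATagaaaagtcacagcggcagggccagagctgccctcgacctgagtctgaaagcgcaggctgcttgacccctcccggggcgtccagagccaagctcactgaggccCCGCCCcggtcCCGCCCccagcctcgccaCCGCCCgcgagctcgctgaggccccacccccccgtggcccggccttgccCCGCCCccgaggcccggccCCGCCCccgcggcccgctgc
Pemt: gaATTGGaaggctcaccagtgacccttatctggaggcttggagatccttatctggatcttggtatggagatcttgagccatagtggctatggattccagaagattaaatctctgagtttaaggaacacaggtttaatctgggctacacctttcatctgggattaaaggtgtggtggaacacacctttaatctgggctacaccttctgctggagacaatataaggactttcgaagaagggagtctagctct

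The windows of Lpcat3 and Chpt1 each held 5 GC boxes, a count of 5 or more being found in 1.93% of all 32851 RefSeq windows. Lpcat3 had 29 CG pairs and Chpt1 had 23, against a median of 6 over all windows. Some members that did not pass were as rich in them: Etnk1 had 31, Chka 24 and the Pcyt1a windows 14 to 28. The Cept1 windows had fewer, 0 to 21. The Pemt window held no GC box, 1 CCAAT box on the reverse strand and 1 CG pair, and 44.8% of its bases were G or C. Another Pemt start, at chr11:60037006-60037255, held neither motif and 2 CG pairs. Of the 14 windows of the members, 10 held a GC box (32.7% of all windows) and 5 held a CCAAT box (33.8% of all windows). Some windows of Cept1 overlap, as do those of Pcyt1a, so the same GC box can count in more than 1 window. The E-box CACGTG, the core letters of the element that ChREBP binds, was in 0 of the 14 windows and in 6.02% of all windows. A match is a description of letters and not a binding site.

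The labels were checked with Mlxipl and with Alb, the albumin of hepatocytes, which was at 13.0 to 13.1 on the ChREBP arrays and 13.0 to 13.2 on the GFP arrays. The Mlxipl value lay between 10.74 and 10.96 on the ChREBP arrays and between 9.07 and 9.61 on the GFP arrays, a difference of 1.57 ± 0.09 (SE, n = 6 each, 2.98-fold, limma adjusted p = 2.86e-08). The groups did not overlap.

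Among the 8 measured members, Lpcat3 and Chpt1 rose in ChREBP livers, Pemt and Pcyt2 fell, and Chka, Etnk1, Pcyt1a and Cept1 did not pass the test. Passing meant an adjusted p under 0.05 in limma, with Benjamini-Hochberg adjustment over all genes. The 4 of 8 that passed stand against 27.0% of all genes, the 2 that rose against 13.3% and the 2 that fell against 13.7%. As the members were chosen with earlier results known, these counts only describe them, and they were not tested. The median difference (ChREBP minus GFP) was -0.13 over the members and -0.04 over all genes, and the median size without sign was 0.25 and 0.11. Lpcat3 and Pemt were the members whose groups did not overlap, as was the case for 15.2% of all genes. A difference of 1.5-fold or more at an unadjusted p below 0.05 was found for 5.70% of all genes and, among the members, for Lpcat3.

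**Figure D1:**
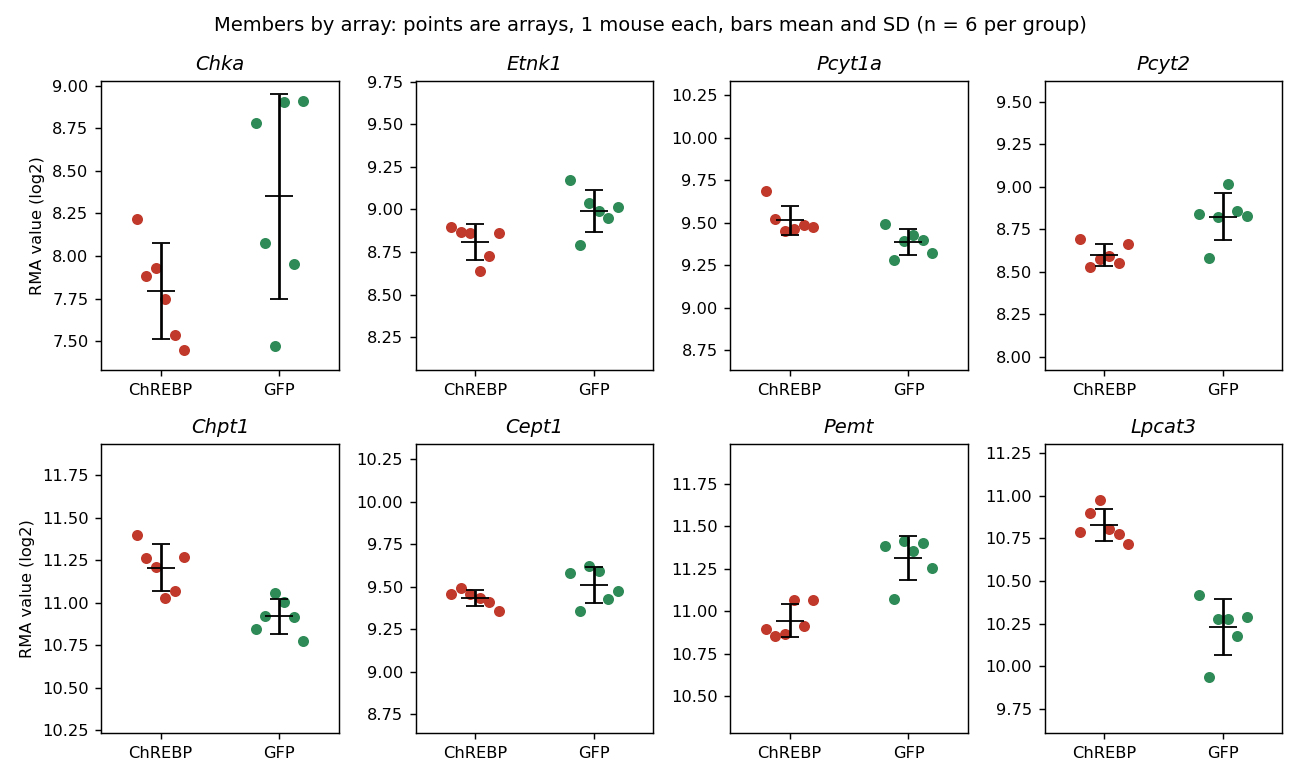
RMA values (log2) of the 8 measured members on every array, with ChREBP livers left and GFP livers right in each panel; points are arrays and bars the mean and SD of 6. The panels span the same number of log2 units, so that the wide spread of Chka on the GFP arrays (SD 0.60) and the separation of the groups for Lpcat3 and Pemt can be compared directly.

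The first step is phosphorylation of choline or ethanolamine by a kinase, and neither measured kinase passed. Chka, choline kinase alpha, read 8.22, 7.88, 7.93, 7.75, 7.54 and 7.45 in ChREBP livers, against 8.78, 8.07, 7.47, 8.91, 7.95 and 8.91 in GFP livers. The wide GFP range fell into 3 arrays near 8.8 or above and 3 at or below 8.07. Every ChREBP array lay below the upper 3, and ChREBP 1 (8.22) lay above the lower 3. The mean was 7.79 ± 0.28 in ChREBP livers and 8.35 ± 0.60 in GFP livers (SD, n = 6 each). The difference of -0.56 had a 95% confidence interval of -1.06 to -0.05 (limma adjusted p = 0.0967), and the spread of Chka within groups was at percentile 98.4 of all genes. GFP 3, the lowest GFP array, decides the call: without it the difference was -0.73 (adjusted p = 0.0161). Without GFP 6 and ChREBP 6 together it was -0.37 (adjusted p = 0.291).

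Etnk1, an ethanolamine kinase, read 8.90, 8.87, 8.86, 8.64, 8.73 and 8.86 in ChREBP livers, against 9.17, 8.79, 9.04, 8.99, 8.95 and 9.02 in GFP livers. GFP 2 was the GFP array that reached into the ChREBP range. The difference was -0.18 ± 0.07 (SE, n = 6 each) with an adjusted p of 0.0513 in limma, just short of the threshold. Without GFP 2 it was -0.22 (adjusted p = 0.0149), and without ChREBP 4 and ChREBP 5, the lowest ChREBP arrays for this gene, it was -0.12 (adjusted p = 0.195).

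The cytidylyl transferases catalyse the step held to limit the rate of each branch. Pcyt2, which makes CDP-ethanolamine, fell. It read 8.69, 8.53, 8.58, 8.59, 8.55 and 8.66 in ChREBP livers, against 8.84, 8.58, 8.82, 9.02, 8.85 and 8.83 in GFP livers. Apart from GFP 2, every GFP array was above every ChREBP array. The mean was 8.60 ± 0.07 in ChREBP livers and 8.82 ± 0.14 in GFP livers (SD, n = 6 each), a difference of -0.22 ± 0.06 (SE, 1.17-fold lower, limma adjusted p = 0.0172). Without ChREBP 4 and ChREBP 5 the difference was -0.21 and did not pass (adjusted p = 0.0589). Hepatocyte markers, given below beside Pemt, were also lower for 4 of 6, with a median difference of -0.19. Their part in the Pcyt2 difference was not tested.

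Pcyt1a, which makes CDP-choline, read 9.69, 9.52, 9.45, 9.46, 9.49 and 9.48 in ChREBP livers, against 9.49, 9.28, 9.39, 9.43, 9.40 and 9.32 in GFP livers. ChREBP 1 stood above the other ChREBP arrays, and GFP 1 lay within the ChREBP range. The difference was 0.13 with an interval of 0.02 to 0.24 and did not pass (limma adjusted p = 0.0824).

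The change of Pcyt1a and that of Pcyt2 differed from each other. On each array the Pcyt1a value minus the Pcyt2 value was 0.82 to 1.00 in ChREBP livers and 0.41 to 0.70 in GFP livers. The level of such a within-array difference depends on the probes, so only its shift between groups is read. The shift was 0.35 ± 0.05 (SE, n = 6 each) and the groups did not overlap. An exact two-sided permutation test, which ran through the 924 ways to split the arrays, gave p = 0.00216, the smallest that these group sizes allow, and 0.00216 after adjustment over the 3 pairs compared. The pairs were chosen with earlier results of these data known. The part of the hepatocyte markers in the shift was not tested.

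The phosphotransferases complete each branch. Chpt1, choline phosphotransferase 1, rose. It read 11.40, 11.26, 11.21, 11.03, 11.07 and 11.27 in ChREBP livers, against 10.85, 10.92, 11.06, 11.00, 10.91 and 10.77 in GFP livers. ChREBP 4 lay below GFP 3, and the other 5 ChREBP arrays were above all 6 GFP arrays. The mean was 11.21 ± 0.14 in ChREBP livers and 10.92 ± 0.10 in GFP livers (SD, n = 6 each), a difference of 0.29 ± 0.07 (SE, 1.22-fold, limma adjusted p = 0.00637). Cept1, which accepts CDP-choline and CDP-ethanolamine alike, read 9.36 to 9.49 in ChREBP livers (median 9.44) and 9.36 to 9.62 in GFP livers (median 9.53). Its difference of -0.08 had an interval of -0.19 to 0.04 (adjusted p = 0.298).

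The Chpt1 value minus the Cept1 value on the same array was 1.60 to 1.94 in ChREBP livers and 1.27 to 1.56 in GFP livers. This shift of 0.36 ± 0.07 (SE, n = 6 each) separated the groups completely (exact permutation p = 0.00216, adjusted 0.00216). The choice of this pair was likewise made with earlier results known.

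Pemt, the methyltransferase, fell. It read 10.89, 10.86, 10.87, 11.07, 10.91 and 11.07 in ChREBP livers, against 11.38, 11.07, 11.41, 11.36, 11.40 and 11.26 in GFP livers. GFP 2 lay only just above the highest ChREBP arrays, and the other GFP arrays were well clear of them. The mean was 10.94 ± 0.10 in ChREBP livers and 11.31 ± 0.13 in GFP livers (SD, n = 6 each), a difference of -0.37 ± 0.07 (SE, 1.29-fold lower, limma adjusted p = 0.000793). In a bulk sample fewer cells of a type and less RNA per cell cannot be told apart. Of the 6 measured hepatocyte markers, 4 were also lower and 0 higher in ChREBP livers, with a median difference of -0.19 and a summed level of 15.20 to 15.36 in ChREBP livers and 15.38 to 15.51 in GFP livers (log2). Lower markers numbered 3 without ChREBP 4 and ChREBP 5 (median -0.19), without GFP 6 and ChREBP 6 (-0.20) and without GFP 2 (-0.18). The part of the hepatocyte markers in the Pemt difference was not tested.

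Pemt and Pcyt1a belong to different routes to phosphatidylcholine, methylation and CDP-choline. The Pemt value minus the Pcyt1a value on each array was 1.21 to 1.60 in ChREBP livers and 1.79 to 2.02 in GFP livers. The shift was -0.50 ± 0.07 (SE, n = 6 each), with no overlap between the groups (exact permutation p = 0.00216, adjusted 0.00216). This pair was also chosen with earlier results known, and Pemt alone already separated the groups. The part of the hepatocyte markers in this shift was not tested.

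Lpcat3, the acyltransferase, had the largest difference of the 8 members. It read 10.79, 10.90, 10.98, 10.81, 10.78 and 10.72 in ChREBP livers, against 10.42, 9.94, 10.27, 10.28, 10.18 and 10.29 in GFP livers. Every ChREBP array was above every GFP array, and GFP 2 was the lowest. The mean was 10.83 ± 0.09 in ChREBP livers and 10.23 ± 0.16 in GFP livers (SD, n = 6 each), a difference of 0.60 ± 0.07 (SE, 1.51-fold, limma adjusted p = 3.25e-05). With each array left out in turn it stayed between 0.54 and 0.64 and passed in all 12 repeats, as did Chpt1, Pemt and Pcyt2.

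**Figure D2:**
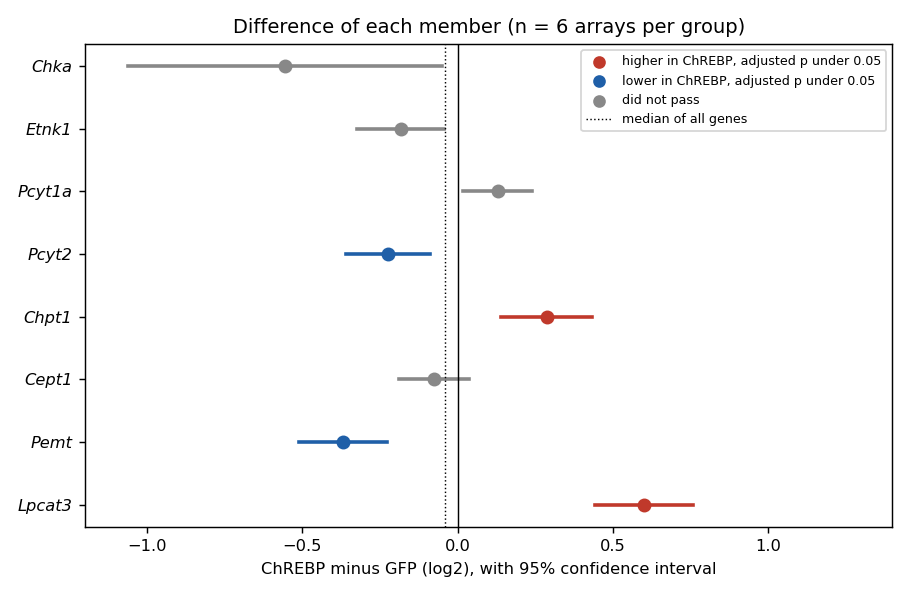
Difference of each measured member (ChREBP minus GFP, log2) with its 95% confidence interval, n = 6 arrays per group, in pathway order from the kinases at the top to Lpcat3 at the bottom; colour gives the call and the dotted line the median of all genes. Lpcat3 (0.60) and Chpt1 (0.29) lie to the right of 0 with a passing test, and Pemt (-0.37) and Pcyt2 (-0.22) to the left.

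Single arrays moved several members together. GFP 2 was the lowest of the GFP arrays for 6 of the 8 members, Etnk1, Pcyt1a, Pcyt2, Cept1, Pemt and Lpcat3, and it was the lowest GFP array for 26.4% of all genes. ChREBP 1 was the highest ChREBP array for 5 of the 8, namely Chka, Etnk1, Pcyt1a, Pcyt2 and Chpt1, and for 13.9% of all genes. ChREBP 4 and ChREBP 5 carried strong signal of pancreatic acinar markers, whose summed level was 15.1 and 14.9 there, 8.74 to 10.3 on the other ChREBP arrays and 8.76 to 9.02 on the GFP arrays. ChREBP 5 also had the highest summed levels of endothelial (11.8), cholangiocyte (9.60), macrophage (12.68), T and NK cell (10.2) and B cell markers (8.08) of all 12 arrays. The sums add values off the log scale, so the brightest genes weigh most. On ChREBP 5 Lyz2 (11.56) of the macrophage and Pecam1 (9.57) and Cdh5 (10.35) of the endothelial markers were at their highest of all 12 arrays. Clec4f (8.43) of the macrophage and Stab2 (7.60) and Clec4g (8.59) of the endothelial markers were at their lowest. The summed level of adipocyte markers was highest on ChREBP 6 (9.86), GFP 4 (9.56) and GFP 6 (9.44), against 8.50 to 8.99 on the other arrays. It followed Adipoq, at 9.02, 8.52 and 8.32 on these arrays and 5.01 to 7.25 on the others. Other adipocyte markers did not all follow. Retn did, at 6.58, 6.89 and 6.45 on these arrays and 5.78 to 6.37 on the others. Lep was at its highest of all 12 arrays on GFP 6 (5.18), with 4.86 on ChREBP 6 and 4.80 on GFP 4. Plin1 on these arrays (6.47, 6.54 and 6.59) lay within the range of the others (6.08 to 6.75). Plin4 was at its lowest of all 12 arrays on GFP 4 (5.72). Lipe was lower on every GFP array than on every ChREBP array. The part of these markers in the members' differences was not tested. ChREBP 4 and ChREBP 5 were the lowest ChREBP arrays for Etnk1 and for Chpt1. Without them Chpt1 differed by 0.37, Pemt by -0.39 and Lpcat3 by 0.62, and all 3 passed. Without GFP 6 and ChREBP 6 the members that passed were again Lpcat3, Chpt1, Pemt and Pcyt2.

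**Figure D3:**
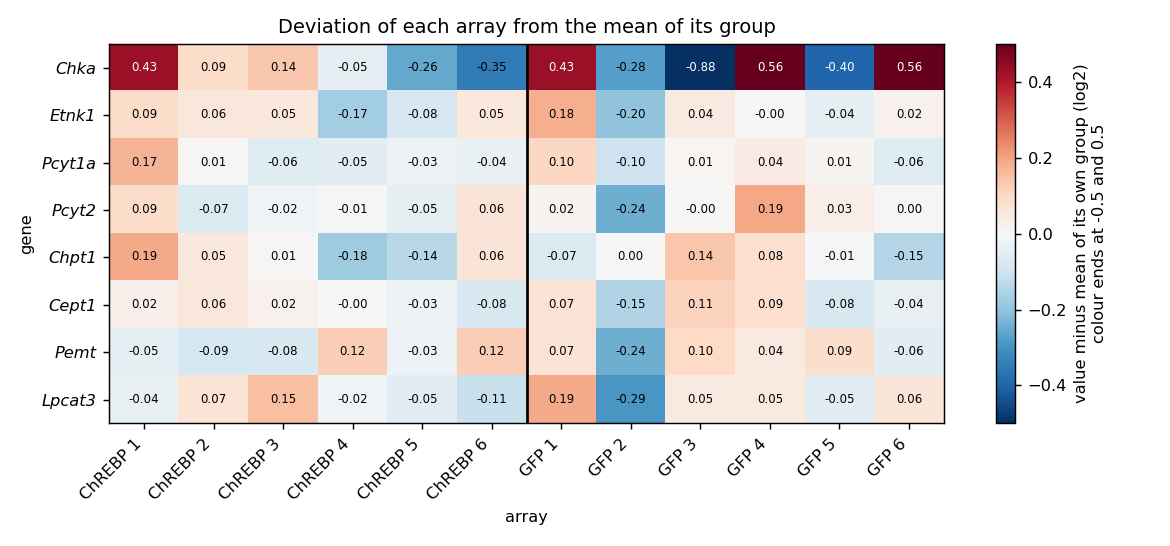
Value of each member on each array minus the mean of its own group (log2), ChREBP arrays left and GFP arrays right of the line; red is above and blue below the group mean, and the colour ends at -0.5 and 0.5. The GFP 2 column is below the group mean for every member except Chpt1, and Chka has the widest swings, from -0.88 on GFP 3 to 0.56 on GFP 6.

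Around these enzymes, 65 genes in 8 lists of choline and phospholipid metabolism were measured, of which 15 rose, 17 fell and 33 did not pass, with a median difference of -0.03. Over all genes 13.3% rose and 13.7% fell. In the remainder of the CDP-choline and CDP-ethanolamine pathway, 1 of 4 rose and 2 fell, with a list median of -0.15. Phospho1, a phosphatase of phosphocholine and phosphoethanolamine, rose by 0.70 ± 0.06 (SE, n = 6 each, limma adjusted p = 2.05e-06), at 6.17 to 6.47 in ChREBP livers and 5.44 to 5.78 in GFP livers. Selenoi, the ethanolamine phosphotransferase, fell, at 9.36 to 9.70 in ChREBP livers and 9.80 to 9.99 in GFP livers (difference -0.34, adjusted p = 0.00132). Etnppl, the lyase that breaks down phosphoethanolamine, was at 10.01 to 10.45 in ChREBP livers and 10.49 to 10.89 in GFP livers (difference -0.44, adjusted p = 0.00180). Pcyt1b, the beta form of the choline cytidylyl transferase, differed by 0.03 (adjusted p = 0.762).

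Choline oxidation and the supply of methyl groups share substrates with the Pemt route, and 7 of 10 measured genes fell and 1 rose, with a list median of -0.30. The shares over all genes were 13.7% and 13.3%. Nnmt, which spends S-adenosylmethionine on nicotinamide, was at 9.17 to 9.79 in ChREBP livers and 10.22 to 10.62 in GFP livers, a difference of -0.96 ± 0.10 (SE, n = 6 each, 1.95-fold lower, limma adjusted p = 9.96e-06). Sardh, sarcosine dehydrogenase, differed by -0.48, Bhmt2, a homocysteine methyltransferase, by -0.45, and Aldh7a1, which oxidises betaine aldehyde, by -0.31. The glycine and guanidinoacetate methyltransferases Gnmt and Gamt (-0.35 and -0.27) and dimethylglycine dehydrogenase Dmgdh (-0.30) fell too. In all 7 genes that fell the groups did not overlap, against 15.2% of all genes, passed or not. These 7 had already been called lower, which favours such separation. The hepatocyte markers given beside Pemt, 4 of 6 lower with a median of -0.19 and summed levels that did not overlap between groups, moved the same way, and their part in these differences was not tested. The count that fell was also 7 without ChREBP 4 and ChREBP 5, without GFP 6 and ChREBP 6, and without GFP 2. Mat1a, which makes S-adenosylmethionine in liver, was the gene that rose (0.17, adjusted p = 0.0405), a call lost in 8 of 12 repeats that each left out 1 array: ChREBP 1, 3, 4 or 6, or GFP 1, 2, 4 or 6 (0.14 to 0.17, adjusted p 0.0587 to 0.0886). Chdh, choline dehydrogenase, differed by 0.10 (adjusted p = 0.227) and Bhmt by -0.05 (adjusted p = 0.508).

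Of 8 measured genes of choline and ethanolamine import, 3 rose and 1 fell, with a list median of 0.11. Slc44a1, a choline transporter, fell by 0.29, at 9.98 to 10.23 in ChREBP livers and 10.30 to 10.66 in GFP livers (limma adjusted p = 0.00714). Its relative Slc44a3 rose by 0.47, at 6.95 to 7.23 in ChREBP livers and 6.46 to 6.92 in GFP livers (adjusted p = 0.000302). Flvcr1 and Flvcr2, which import choline, rose by 0.32 (adjusted p = 0.0116) and 0.22 (adjusted p = 0.0384). The Flvcr1 difference was 0.15 when its rows were averaged (adjusted p = 0.0511). The Flvcr2 call was lost without ChREBP 2, 4 or 6 or GFP 1, 4 or 5 (0.18 to 0.23, adjusted p 0.0529 to 0.0835).

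Of 7 other lysophospholipid acyltransferases, Lpcat2 rose, Lpgat1 fell and 5 did not pass, with a list median of 0.15. Lpcat2, a relative in function of Lpcat3 that is known from inflammatory cells, was at 6.58 to 7.04 in ChREBP livers and 6.18 to 6.29 in GFP livers (difference 0.58, limma adjusted p = 5.10e-05). Macrophage and Kupffer cell markers moved in both directions beside it, 4 of 9 higher and 4 lower, with a summed level of 12.13 to 12.68 in ChREBP livers and 12.01 to 12.25 in GFP livers. T and NK cell markers were higher for 6 of 7, at 9.31 to 10.2 in ChREBP livers and 8.39 to 8.97 in GFP livers. Their part in the Lpcat2 or Lpcat3 difference was not tested. Lpgat1, an acyltransferase of lysophosphatidylglycerol, differed by -0.26 (adjusted p = 0.00134). Lpcat1, which did not pass, was at 8.90 on ChREBP 5, 7.08 to 7.30 on the other ChREBP arrays and 6.84 to 7.27 on the GFP arrays, and its difference of 0.42 (adjusted p = 0.239) was 0.14 without ChREBP 5.

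Hydrolysis and recycling of phosphatidylcholine held 16 measured genes, of which 4 rose and 1 fell, with a list median of -0.08. Gdpd1, a lysophospholipase D, was at 6.29 to 7.16 in ChREBP livers and 5.62 to 6.63 in GFP livers (difference 0.71, limma adjusted p = 0.00615), the GFP 6 array alone lying within the ChREBP range. Gde1, a glycerophosphodiesterase, differed by 0.43, and the phospholipases A2 Pla2g4a and Pla2g6 by 0.42 and 0.23. Lypla1, a lysophospholipase, fell by 0.22 (adjusted p = 0.00621).

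Carriers and exporters of phosphatidylcholine were split, 2 of 6 higher and 3 lower, with a list median of -0.01. Pltp, which transfers phospholipid between lipoproteins, was at 8.99 to 9.89 in ChREBP livers and 8.25 to 8.80 in GFP livers (difference 0.80, limma adjusted p = 0.000634). Abcb4, which moves phosphatidylcholine into bile, was at 10.14 to 10.49 in ChREBP livers and 9.73 to 10.13 in GFP livers (difference 0.32, adjusted p = 0.00551). Stard10 (-0.26), Lcat (-0.29) and Stard7 (-0.19) fell, the first and last being lipid transfer proteins and Lcat the plasma enzyme that esterifies cholesterol with a chain from phosphatidylcholine. Stard7 did not pass without ChREBP 4 and ChREBP 5 (-0.14, adjusted p = 0.0945). Pctp, phosphatidylcholine transfer protein, differed by 0.17 (adjusted p = 0.0922), and by 0.10 without GFP 6, its lowest array.

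The phosphatidylserine, phosphatidylinositol and cardiolipin branches held 9 measured genes, 3 higher and 1 lower, with a list median of 0.06. Ptdss1, which makes phosphatidylserine from phosphatidylcholine, fell by 0.35 (limma adjusted p = 0.000770), and Pgs1, of cardiolipin synthesis, rose by 0.32 (adjusted p = 0.00687). Crls1 and Ptpmt1, of the same route, differed by 0.24 (adjusted p = 0.0331) and 0.12 (adjusted p = 0.0397). The Crls1 call was lost without ChREBP 1, 2 or 4 or GFP 1, 5 or 6 (0.19 to 0.24, adjusted p 0.0526 to 0.0726). The Ptpmt1 call was lost in 9 of 12 such repeats, without ChREBP 1, 2, 3 or 6 or GFP 1, 2, 3, 4 or 6 (0.11 to 0.13, adjusted p 0.0510 to 0.0848).

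Of 5 nuclear receptors tied to phosphatidylcholine, Nr5a2, which binds phosphatidylcholines in its ligand pocket, fell, at 9.03 to 9.40 in ChREBP livers and 9.43 to 9.81 in GFP livers (difference -0.35, limma adjusted p = 0.00311). Nr1h3, the liver X receptor alpha of which Lpcat3 is a known target, differed by -0.12 (adjusted p = 0.0772). Ppara, Ppard and Nr1h4 gave adjusted p-values of 0.972, 0.681 and 0.332.

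**Figure D4:**
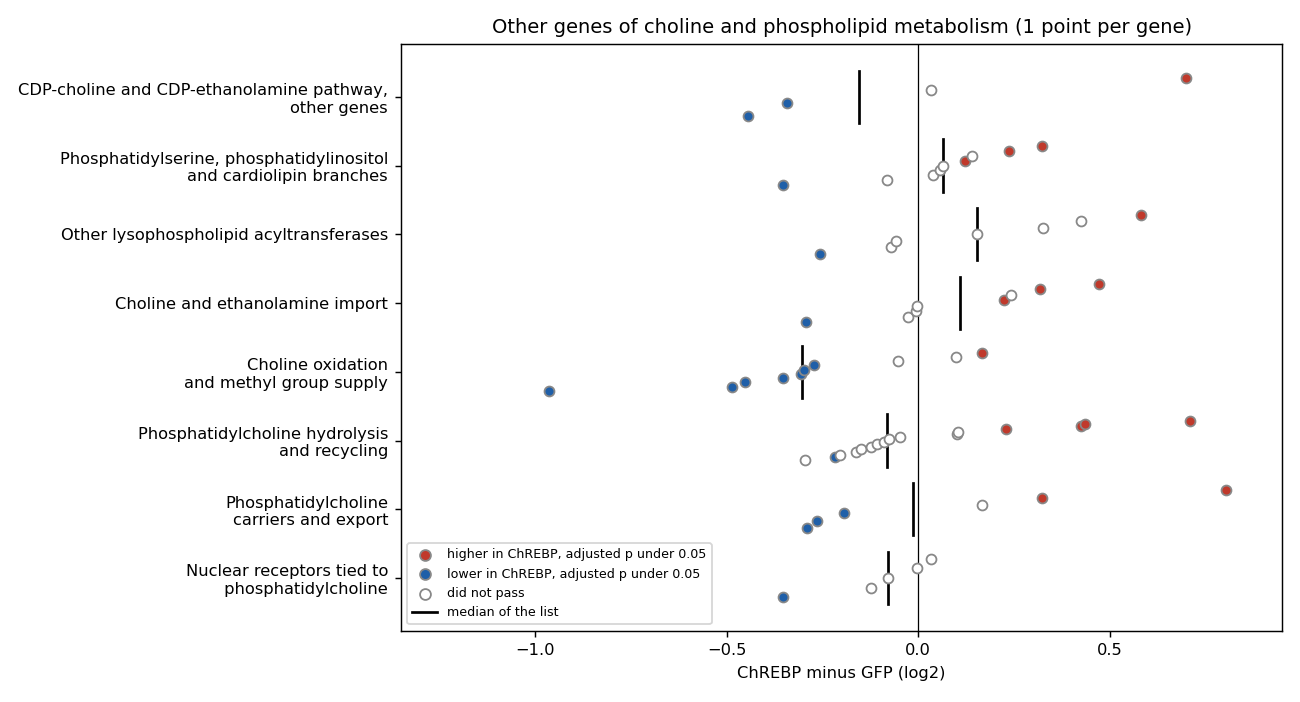
Difference of each measured gene in the 8 lists of choline and phospholipid metabolism (ChREBP minus GFP, log2), 1 point per gene, with filled points for genes that passed and a bar at the median of each list. The median of choline oxidation and methyl group supply lies at -0.30, the lowest of the 8 lists, and Nnmt (-0.96) and Pltp (0.80) are the outermost points.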

How the data were processed

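Expression was measured in the livers of 12 mice, 1 Affymetrix mouse gene array per mouse, from total RNA amplified and biotin-labelled with Nugen reagents. The authors deposited log2 values, and the submitters' processing notes list Partek and RMA with no version. RMA removes background, normalizes quantiles across arrays and summarises probes by median polish. Array medians were 5.96 to 6.05 and values ran between 2.43 and 13.7, so genes had not been centred. RMA narrows array-wide shifts, and probe signal shared with related genes stays in the values. Without detection calls, absence of a gene was not judged. Precision is limited by the count of arrays. The dose of virus could not be read from the labels.

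Of 35556 rows, 21789 carried 1 symbol, 1621 several and 12146 none that is listed. Of the single-symbol rows 21698 matched RefSeq of GRCm38.p6, used for names and promoter windows. The brightest row of a gene over all arrays represented it, which left 19938 genes and no filter on dim ones. Differences are ChREBP minus GFP, tested two-sided with lmFit and eBayes of limma 3.58.1 (R 4.3.3) without covariates and adjusted over 19938 genes by Benjamini-Hochberg. A second rule asked for 1.5-fold or more with an unadjusted p below 0.05, after the cut-off used in the text on the Phf2 arrays, which were of another type. Differences between the changes of a pair of members were tested with an exact permutation test. On simulated data with 200 of 19938 genes changed, the limma test recovered 92.5% of 1.5-fold, 98.5% of 2-fold and 98.5% of 4-fold changes, and 5.39% of calls were false. The simulated noise was normal and independent, without outlying arrays. The share of genes changed was far below the 27.0% that passed in the data. The adjusted p depends on that share, so these rates need not hold for the data. No change under 1.5-fold was simulated, so recovery at the sizes seen for Chpt1, Pemt and Pcyt2 is not known.

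The members, lists and pairs were chosen with earlier results of these data known. All members were named, and from each list up to 4 genes with the smallest p among those that passed. Genes that complete a count of 5 or fewer that rose or fell in a list were added. Gnmt, Gamt, Dmgdh, Lpcat1 and Alb were named outside that rule, after their values were seen. So were the cell markers Lyz2, Pecam1, Cdh5, Clec4f, Stab2, Clec4g, Adipoq, Retn, Lep, Plin1, Plin4 and Lipe. Pcyt1b, Chdh, Bhmt, Pctp, Nr1h3, Ppara, Ppard and Nr1h4, which did not pass, were named outside it too, some after their values were seen. Alternatives changed the scaling (quantile normalization repeated, or arrays centred on their medians), the genes (the 25% dimmest dropped, rows of a gene averaged, or every row tested), the model (trended or robust moderation, array weights, analysis of variance, replicate numbers as a block) and the arrays (each left out, ChREBP 4 with ChREBP 5 left out, GFP 6 with ChREBP 6 left out), and the second rule was applied.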

Additional observations from a re-analysis of the deposited data

Results flagged for a closer look

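In groups of 6 arrays, a single array was marked when its gap to the nearest other array took up more of the range of the group than Dixon's 95% limit allows. Chance marks about 1 in 20 groups, and 6 of 102 groups of the genes named here were marked, cell markers other than Alb not being looked at. Pcyt1a was at 9.69 on ChREBP 1, where the other ChREBP arrays lay between 9.45 and 9.52. Gdpd1 was at 6.63 on GFP 6, where the other GFP arrays lay between 5.62 and 5.97. Lcat was at 10.85 on GFP 2 (other GFP arrays 11.09 to 11.23), and Abcb4 was at 9.73 on the same array (other GFP arrays 9.98 to 10.13). Pctp was at 9.88 on GFP 6, below the other GFP arrays at 10.21 to 10.32. Lpcat1 was at 8.90 on ChREBP 5, above the other ChREBP arrays at 7.08 to 7.30.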

How the results depend on the processing

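Lpcat3, Chpt1 and Pemt kept their direction and their call under every alternative that adjusts p over all genes, and so did Pcyt2 except without ChREBP 4 and ChREBP 5, where the members that fell numbered 1. Asking instead for 1.5-fold or more at an unadjusted p below 0.05 took 1137 genes in place of 5375, with 1 member higher (Lpcat3) and 0 lower, although 4 members were lower at an unadjusted p under 0.05 alone in limma. Etnk1 passed without GFP 2, after median centring (-0.24, adjusted p = 0.0141), after a repeated quantile normalization (-0.19, 0.0182), without the dimmest genes (-0.18, 0.0433) and with array weights (-0.17, 0.0458). Pcyt1a passed after the repeated normalization (0.14, adjusted p = 0.0349), and Chka without GFP 3. The cause was not tested.

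Over all genes 2645 rose and 2730 fell (49.2% higher). Median centring gave 2194 higher and 5595 lower (28.2% higher). The members that fell numbered 3 and those that rose 2 under it, Pcyt1a differed by 0.07 and Cept1 by -0.13, and neither passed. Calls lost under it were Ptpmt1 (0.07, adjusted p = 0.210), Mat1a (0.11, 0.156), Crls1 (0.18, 0.0924) and Flvcr2 (0.17, 0.0774), and Nr1h3 passed (-0.18, 0.0137), as it did after the repeated normalization (-0.17, 0.0157). Crls1 and Pla2g6 did not pass after the repeated normalization (0.18, adjusted p = 0.0981, and 0.17, 0.0583). Crls1, Flvcr2 and Mat1a were also lost with every row tested (adjusted p = 0.0546, 0.0617 and 0.0590), Crls1 and Flvcr2 with the analysis of variance (0.0539 and 0.0600) and Ptpmt1 with robust moderation (0.0503). Without ChREBP 4 and ChREBP 5, Crls1, Flvcr2 and Mat1a did not pass (0.0524, 0.0929 and 0.0503), nor did Ptpmt1, Flvcr2 and Mat1a without GFP 6 and ChREBP 6 (0.105, 0.0942 and 0.132).

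The replicate numbers did not pair the arrays: same-numbered arrays deviated together with correlations of -0.0609 to 0.254, and 1 of 6 was over 0.1. With the replicate number as a block 4439 genes passed, the members stayed at 2 higher and 2 lower, and the 3 pair differences gave p = 0.0312 each by an exact test of sign flips, the smallest it allows. Ptpmt1, Mat1a and Stard7 did not pass under the block (adjusted p = 0.111, 0.0938 and 0.0587). The 3 pair differences kept their sign in every setting run, and each array left out in turn gave 0.32 to 0.38 for Pcyt1a with Pcyt2, 0.33 to 0.40 for Chpt1 with Cept1 and -0.53 to -0.45 for Pemt with Pcyt1a. Of the 5 pairs planned, those with Chkb and Etnk2 could not be run. With RMA values and no detection calls, dim genes have no lower limit, and differences of low genes are compressed.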
